A study of Homo sapiens with 12 samples.

Results

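The constitutive proteasome subunits are the genes of the standard proteasome, and their transcripts were followed here in HT1080 cells given a phorbol ester or a lectin. Members were taken by symbol as PSMA1 to PSMA7, PSMB1 to PSMB7, PSMC1 to PSMC6 and every numbered PSMD gene, provided that the gene was listed in both deposited tables. This gave 34 genes of the 15459 listed in both tables, and all 34 passed the minimum level for testing in each comparison. They comprise 7 alpha and 7 beta subunits of the core particle, 6 ATPases of the base, 3 further base subunits, 8 lid subunits and 3 assembly chaperones that carry PSMD names. PSMD4, which sits between base and lid, was counted with the base.

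HT1080 is an established human fibrosarcoma line, labelled here as wild type. Cells were grown in biotin-depleted medium, moved to a low-serum form of it, and either given 40 nM phorbol 12-myristate 13-acetate (PMA), which activates protein kinase C, for 24 h, or 40 µg/mL concanavalin A (ConA), a lectin that binds mannose-rich glycans, for 24 h. Each treatment had 3 libraries and 3 control libraries of its own, 12 in all, and the labels name no vehicle for the controls. Polyadenylated RNA was sequenced, and the values are normalized counts, that is, estimated counts per gene divided by one factor per library and not by gene length. The labels do not say whether replicates came from separate cultures, so p-values measure the spread between these libraries, which may be technical. In bulk RNA, a lower transcript level per cell and fewer cells that carry the transcript cannot be told apart.

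The proteasome is the main protease for ubiquitin-tagged proteins in the cytosol and nucleus. Its core is a barrel of stacked rings, in which alpha subunits form the gate and 3 kinds of beta subunit, PSMB5, PSMB6 and PSMB7, carry the active sites, with chymotrypsin-like, caspase-like and trypsin-like activity, respectively. The regulatory particle caps the barrel. Its base holds a ring of ATPases that unfold substrates and push them into the core, together with scaffold and ubiquitin-receptor subunits, and its lid removes the ubiquitin chain. Subunits are needed in fixed ratios, and in human cells their genes are known to be raised together by the transcription factor NFE2L1 when proteasome capacity falls short.

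Estimated reads per library ranged from about 33620000 to 45570000, with a median of 40955000. The summed level of 8 mesenchymal markers was 483522 to 496040 normalized counts in the PMA controls, 464617 to 484712 with PMA, 546110 to 625035 in the ConA controls and 408401 to 441838 with ConA, and 6 of 8 fell with each treatment. Of 5 epithelial markers, KRT5 had no listed value, and EPCAM and CDH1 had values in the ConA experiment only. The sums over those listed were 130 to 136, 65.9 to 81.3, 146 to 159 and 145 to 203 in the same order. The 3 haemoglobin genes had no listed value. Markers of the labelled mesenchymal tumour were thus present in every library. Of 11 leukocyte markers, MS4A1, CD79A and CD14 had no listed value, and in the ConA experiment only CD3D and LYZ had one. The sums over those listed were 751 to 825 in the PMA controls, 885 to 1397 with PMA, 105 to 140 in the ConA controls and 111 to 169 with ConA. Epithelial and leukocyte sums thus cover different genes in the PMA and ConA experiments. The marker lists moved with the treatments, and their part in the results was not tested. Subunit values were close between replicates, with a median coefficient of variation of 2.75% with PMA and 6.23% in its controls, 3.62% with ConA and 4.81% in its controls. Single libraries moved the subunits together: PMA control 3 was the lowest of its group for 28 of 34 subunits (36.8% of all genes), and ConA control 5 the highest for 28 of 34 (37.1% of all genes).

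PMA raised most of the subunits. With PMA, 27 of 34 were higher and 2 were lower than in the controls (limma, Benjamini-Hochberg adjusted p of at most 0.05 over all 15153 genes tested), where 32.8% of all genes were higher and 30.5% lower. The median log2 fold change was 0.25 over the subunits and 0.003 over all genes. Most changes were modest, and 1 subunit, PSMD2, passed the thresholds shown in the study (adjusted p no larger than 0.0001 and log2 fold change of 1 or more in either direction), which 8.65% of all genes passed. Subunits together made up 0.514% ± 0.024 of all normalized counts in the controls and 0.628% ± 0.007 with PMA (SD, n = 3). Without PSMD2 the shares were 0.446% ± 0.024 and 0.486% ± 0.008. The control groups differed too. In the ConA controls, which were normalized separately, the share was 0.615% ± 0.020, and 0.538% ± 0.020 without PSMD2. What set the control groups apart was not tested.

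**Figure D1:**
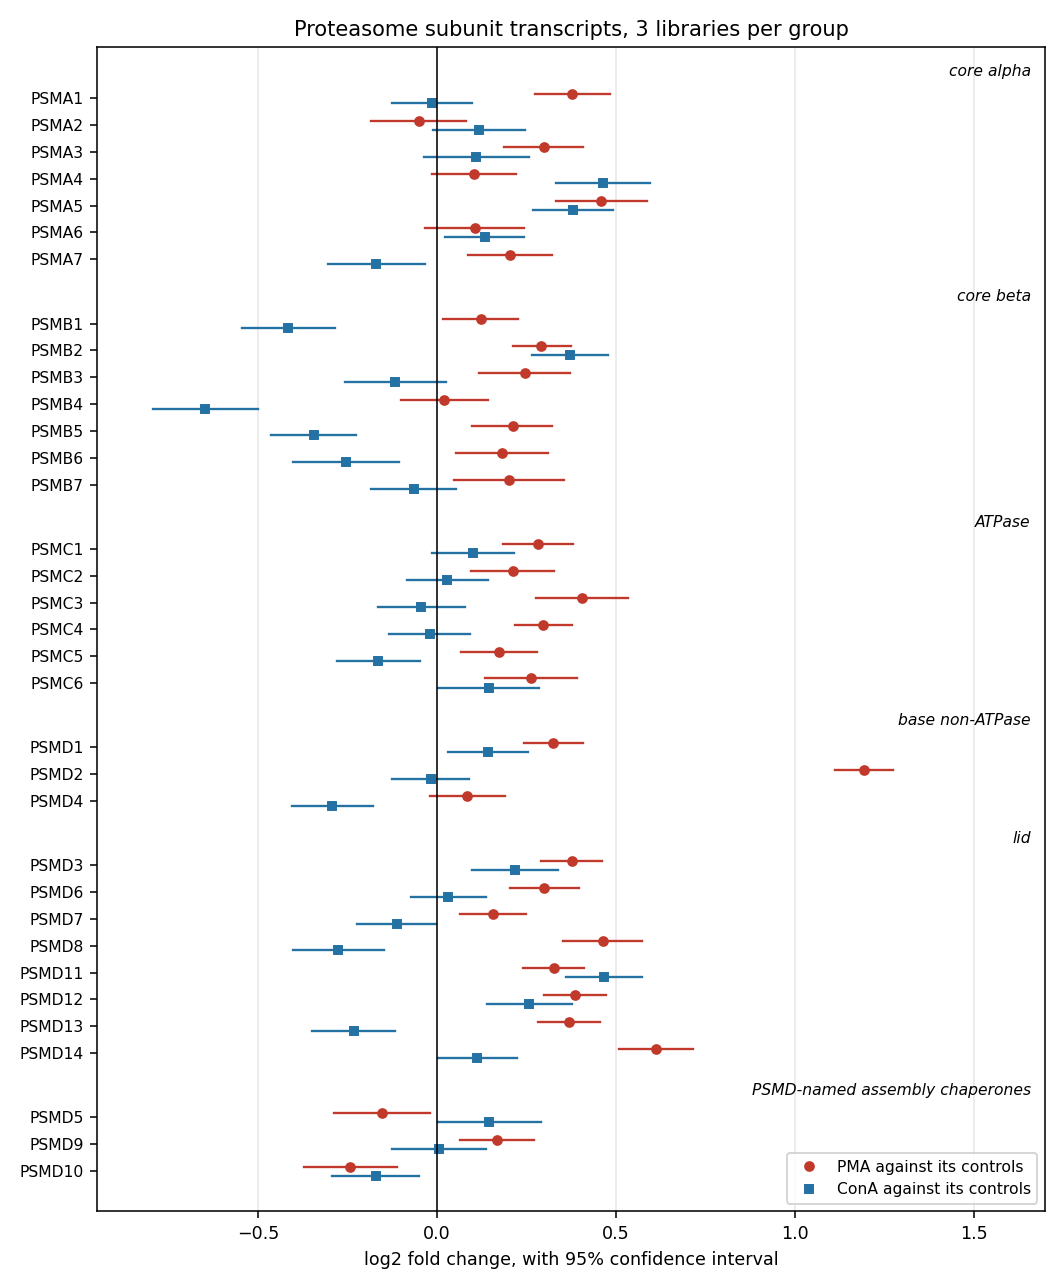
Log2 fold change of each of the 34 subunits (vertical axis, grouped by place in the particle) with PMA (red circles) and ConA (blue squares), each against its own 3 controls, with 95% confidence intervals. With PMA, PSMD2 stands at 1.19 and all lid subunits lie between 0.16 and 0.61, whereas with ConA the values run from -0.65 for PSMB4 to 0.47 for PSMD11.

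The scaling of the libraries bears on how many of these rises are called. When every library was set to the same total, the median of all genes with PMA moved to -0.12, the share of all calls that were higher went from 51.9% to 35.6%, and 16 subunits were higher and 3 lower, against 22.9% and 41.5% of all genes. A common total shifts all genes of the comparison together, so the subunit median relative to all genes, 0.25, is bound to be the same. After quantile normalization, which does not, it was 0.13, with 17 subunits higher and 3 lower against 29.1% and 32.0% of all genes. The 16 subunits called higher under each of 5 scalings (as deposited, quantile normalized, same total, median-centred, and with the trend over transcript length removed), and with each single library left out, were PSMA1, PSMA3, PSMA5, PSMB2, PSMC1, PSMC3, PSMC4, PSMD1, PSMD2, PSMD3, PSMD6, PSMD8, PSMD11, PSMD12, PSMD13 and PSMD14.

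PSMD2 is the large scaffold subunit of the base on which ubiquitin, shuttle factors and USP14 dock. Its transcript was measured at 25320, 24633 and 25057 normalized counts in the PMA controls and at 57735, 56252 and 57564 with PMA. Every treated library was far above every control, and the values within each group were close. The log2 fold change was 1.19 ± 0.04 (SE), a 2.29-fold rise (limma adjusted p = 2.74e-10), and it was between 1.05 and 1.21 in every alternative run. PSMD2 went from 13.2% ± 0.7 of the summed subunit counts to 22.7% ± 0.5, without correction for length. The other base subunits moved less. PSMD1, the companion scaffold, rose from 5275 ± 157 to 6608 ± 101 normalized counts (log2 fold change 0.33 ± 0.04, adjusted p = 1.74e-05), and the ubiquitin receptor PSMD4 went from 7719 ± 507 to 8170 ± 88 without passing the test (0.08, adjusted p = 0.15).

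All 8 lid subunits taken by symbol rose with PMA (median log2 fold change 0.37). PSMD14, the metalloprotease that cuts ubiquitin chains from substrates, led them with 4401, 4244 and 3916 normalized counts in the controls and 6236, 6516 and 6427 with PMA. The groups were well apart, and the log2 fold change was 0.61 ± 0.05 (adjusted p = 5.16e-07). PSMD8 rose from 7008 ± 473 to 9652 ± 290 (0.46, adjusted p = 1.01e-05), and the structural subunits PSMD12, PSMD3, PSMD13, PSMD11 and PSMD6 lay between 0.30 and 0.39. The smallest lid change was that of PSMD7, the inactive partner of PSMD14, at 0.16 (adjusted p = 0.007). Setting all libraries to the same total left 7 of 8 called. SEM1, a regulatory particle gene without a PSMD symbol and so not a member here, was not called with PMA (-0.006, adjusted p = 0.94).

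All 6 ATPases rose as well, with a median of 0.27. PSMC3 changed most, from 6002, 5926 and 5088 normalized counts in the controls to 7312, 7488 and 7668 with PMA, and its groups did not overlap (log2 fold change 0.41 ± 0.06, adjusted p = 9.84e-05). PSMC5 changed least, from 8024 ± 526 to 9043 ± 180 (0.17, adjusted p = 0.008). The spread among the ATPases, 0.17 to 0.41, was narrow. Under the same total, 3 of 6 remained called.

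The core changed less than the lid. Of the alpha subunits, 4 of 7 rose and none fell, with a median of 0.20. PSMA5 rose most, from 3269, 3178 and 2775 normalized counts to 4134, 4317 and 4199 (0.46 ± 0.06, adjusted p = 3.24e-05), while PSMA2 had 3121, 2943 and 2593 in the controls and 2766, 2798 and 2765 with PMA. The PSMA2 groups overlapped (-0.05, 95% confidence interval -0.18 to 0.08, adjusted p = 0.48). It was called lower without PMA control 3 (-0.13), after quantile normalization (-0.18) and under the same total (-0.17). PSMA4 and PSMA6 did not pass either, with intervals from -0.01 to 0.22 and from -0.03 to 0.24.

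Of the beta subunits, 6 of 7 were called higher with PMA, again with a median of 0.20, but the changes were close to the spread. The non-catalytic PSMB2 rose most, from 4640, 4462 and 4465 normalized counts to 5505, 5462 and 5644 (0.29 ± 0.04, adjusted p = 3.49e-05), with all treated libraries above the controls. Under the same total and under quantile normalization it was the 1 beta subunit still called. PSMB4 was the member not called (0.02, 95% confidence interval -0.10 to 0.14, adjusted p = 0.77).

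PSMB5 had 7528, 7717 and 6804 normalized counts in the controls and 8138, 8693 and 8658 with PMA (0.21 ± 0.05, adjusted p = 0.004). PSMB6 had 3056, 3204 and 2706 against 3267, 3401 and 3481 (0.18 ± 0.06, adjusted p = 0.019), and PSMB7 had 8179, 8216 and 6686 against 8529, 9136 and 8758 (0.20 ± 0.07, adjusted p = 0.026). In each of these genes every treated library was above every control, and control 3 was the lowest. The calls of PSMB6 and PSMB7 were lost without PMA replicate 2 (0.18 and 0.17) or replicate 3 (0.16 and 0.21), and all 3 were lost under the same total, with values of 0.06 to 0.09. PSMB1 (0.12, adjusted p = 0.041) lost its call without PMA replicate 2 (0.10) or 3 (0.11) and without control 1 (0.13) or 3 (0.08), and was at -0.03 after quantile normalization.

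The assembly chaperones with PSMD names, which guide the ATPases into the base and are absent from the finished particle, were lower in 2 of 3 cases. PSMD10, also known as gankyrin, fell from 2058, 1891 and 1807 normalized counts to 1522, 1660 and 1683, with all treated libraries below the controls (-0.24 ± 0.06, adjusted p = 0.004). PSMD5 fell from 789 ± 29 to 709 ± 39 (-0.15, adjusted p = 0.044), a call that was lost without PMA replicate 1 (-0.16) or 3 (-0.11) or without control 1 (-0.14) or 3 (-0.14). PSMD9 rose from 2321, 2244 and 2172 to 2408, 2530 and 2632 (0.17 ± 0.05, adjusted p = 0.009), with adjacent but separate groups, a call lost after quantile normalization (0.07) and under the same total (0.05).

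**Figure D2:**
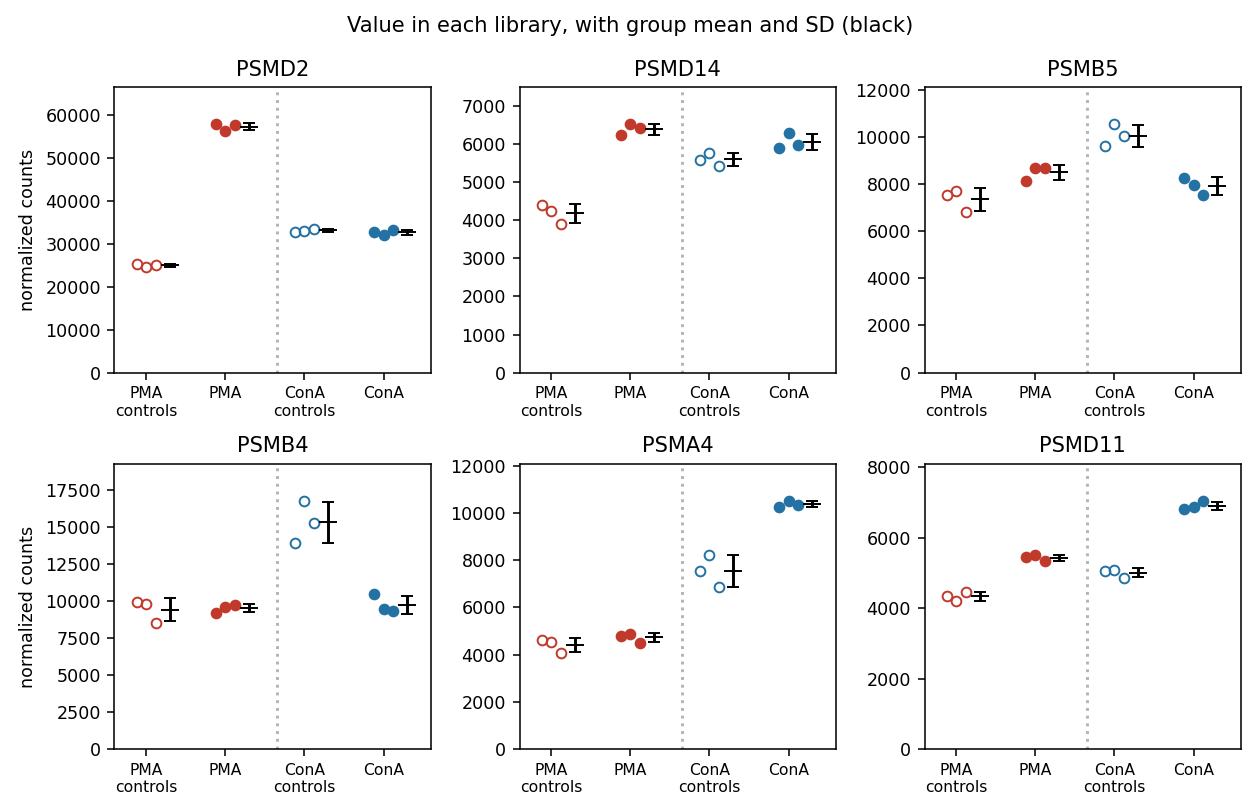
Normalized counts of 6 subunits in each library (open circles, controls; filled circles, treated; black, mean and SD of 3), with a dotted line between the tables, which were normalized separately. PSMD2 and PSMD14 separate with PMA, PSMB4 and PSMB5 are lower with ConA, and PSMA4 and PSMD11 are higher with ConA.

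The gap between lid and core was seen in each PMA library. Relative to the mean of the controls, the lid median exceeded that of the alpha subunits by 0.15, 0.18 and 0.17 (log2) in the 3 PMA libraries and by -0.03, -0.03 and 0.07 in the controls. It exceeded the beta median by 0.20, 0.12 and 0.17 with PMA and by 0.002, -0.05 and 0.07 in the controls. These gaps did not overlap between the groups, and no test across classes was run.

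**Figure D3:**
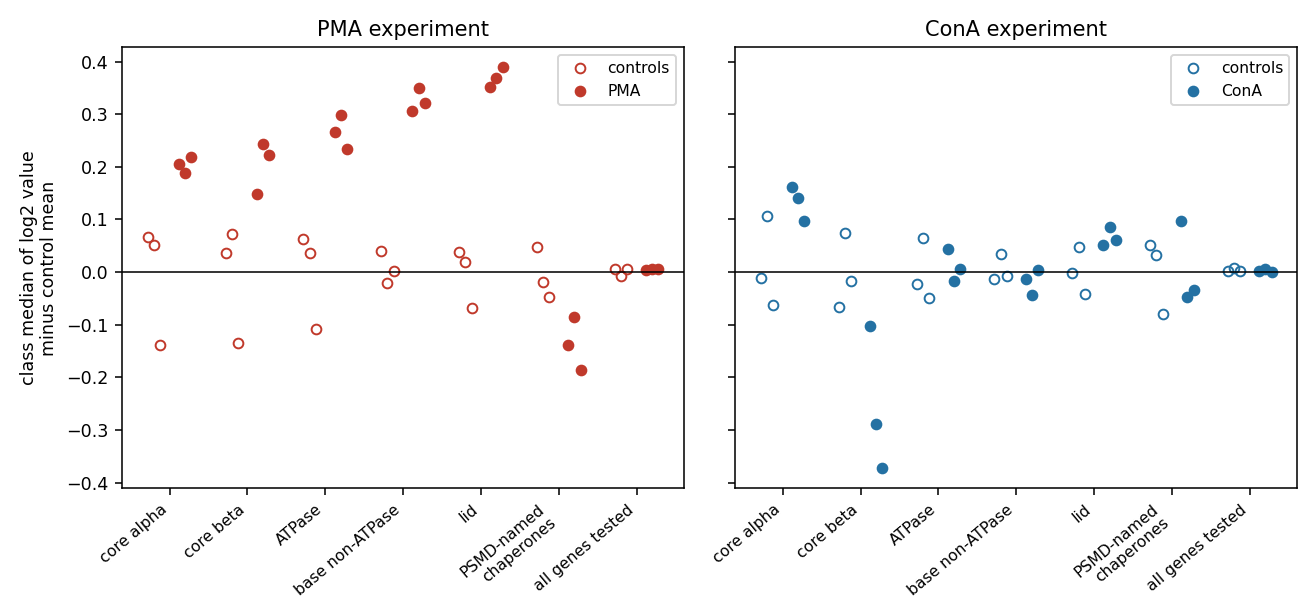
Median over the members of each class of the log2 value minus the mean of the controls (vertical axis), for each control (open) and treated (filled) library of the PMA (left) and ConA (right) experiments, beside the same for all genes tested. With PMA the medians of the lid reach 0.35 to 0.39 and those of the alpha subunits 0.19 to 0.22, and with ConA those of the beta subunits lie between -0.10 and -0.37.

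With ConA, subunits were called in both directions, in numbers that depended on the scaling. Of the 34, 8 were higher, 10 lower and 16 were not called, where 32.8% of all 15139 genes tested were higher and 32.5% lower. The subunit median was -0.004 and that of all genes -0.002. No subunit passed the study's thresholds, which 8.71% of all genes passed, and the summed share of all normalized counts was 0.615% ± 0.020 in the controls and 0.627% ± 0.009 with ConA. The 16 subunits not called lay between -0.12 (PSMB3) and 0.15 (PSMD5).

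Among the beta subunits, 4 of 7 fell and 1 rose, with a median of -0.26, where 32.5% of all genes fell and 32.8% rose. With the trend over transcript length removed, as described with the lengths, the beta median was 0.10, with 3 higher and 2 lower. PSMB4, a non-catalytic subunit, fell most of all members, from 13947, 16756 and 15253 normalized counts to 10472, 9448 and 9358. Every ConA library was below every control, and the log2 fold change was -0.65 ± 0.07 (adjusted p = 1.42e-06). PSMB1 fell from 9249 ± 552 to 6933 ± 434 (-0.42, adjusted p = 3.27e-05). PSMB2 was the exception, at 6133, 6456 and 6079 in the controls and 7993, 7976 and 8168 with ConA (0.37 ± 0.05, adjusted p = 1.42e-05), again without overlap.

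Of the catalytic subunits, PSMB5 fell from 9590, 10523 and 10050 normalized counts to 8253, 7962 and 7533 (-0.34 ± 0.06, adjusted p = 7.71e-05). PSMB6 fell from 4632, 5163 and 4772 to 4518, 3973 and 3745 (-0.25 ± 0.07, adjusted p = 0.005). Both genes were lower in all ConA libraries, whereas PSMB7, with 9822, 10725 and 10093 in the controls and 10304, 9583 and 9399 with ConA, overlapped (-0.07, 95% confidence interval -0.18 to 0.05, adjusted p = 0.32).

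Of the alpha subunits, 3 of 7 were called higher with ConA and 1 lower, where 32.8% of all genes were higher and 32.5% lower. PSMA4 rose most, from 7524, 8210 and 6886 normalized counts to 10275, 10504 and 10333 (0.46 ± 0.06, adjusted p = 1.33e-05), and PSMA5 rose from 5131 ± 257 to 6671 ± 81 (0.38, adjusted p = 2.02e-05). PSMA7, which had 11920, 13840 and 12877 in the controls and 12191, 10975 and 11136 with ConA, was called lower although its groups overlapped (-0.17, adjusted p = 0.028). That call was lost under the same total (-0.10), without ConA replicate 2 (-0.14) or 3 (-0.15) and without control 5 (-0.12) or 6 (-0.17). The call of PSMA6 (0.13, adjusted p = 0.036) was lost when any library but control 5 was left out, with values of 0.11 to 0.15, and after median centring (0.07). In the 3 ConA libraries the alpha median exceeded the beta median by 0.26, 0.43 and 0.47, and in the controls by 0.06, 0.03 and -0.05.

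In the regulatory particle, 4 of 17 subunits were higher and 4 lower with ConA, where 32.8% of all genes were higher and 32.5% lower. PSMD11, a lid subunit that contacts both core and base, rose from 5060, 5092 and 4852 normalized counts to 6820, 6870 and 7037 with clear separation (0.47 ± 0.05, adjusted p = 1.42e-06), and PSMD12 and PSMD3 rose by 0.26 and 0.22 (adjusted p = 9.23e-04 and 0.003). PSMD8 fell from 7978, 9003 and 8662 to 7485, 6852 and 6830, also without overlap (-0.28 ± 0.06, adjusted p = 9.21e-04), and PSMD13 fell by 0.23 on the log2 scale (adjusted p = 0.002). In the base, PSMD4 fell from 8588, 9139 and 8790 to 7582, 7014 and 7047 (-0.29 ± 0.05, adjusted p = 2.14e-04), at -0.09 and not called once the trend over transcript length, described with the lengths, was removed (length removal). PSMD1 rose from 7485, 7479 and 6946 to 7838, 8213 and 8119 (0.14 ± 0.05, adjusted p = 0.026), a call lost without ConA replicate 2 (0.13) or 3 (0.14) or control 6 (0.11), after median centring (0.08) and on length removal (0.09).

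PSMD2, at 32770, 32954 and 33500 normalized counts in the controls and 32762, 32084 and 33158 with ConA, overlapped (-0.02, 95% confidence interval -0.13 to 0.09, adjusted p = 0.77). After quantile normalization PSMD2 was at 0.15 and called higher (adjusted p = 0.009), and under the same total it was at 0.05 and not called. The ATPases stayed near their controls, with 1 of 6 called. PSMC5 had 10646, 11444 and 10817 against 10226, 9288 and 9867 with ConA (-0.16 ± 0.05, adjusted p = 0.016), a call lost without ConA replicate 2 or control 5 (both -0.13), under the same total (-0.10) and on length removal (-0.006). PSMC6 had 1833, 1956 and 1721 against 1900, 2132 and 2054 (0.14, adjusted p = 0.068), called higher without ConA replicate 1 or control 5 (both 0.19), under the same total (0.21) and on length removal (0.20). Of the chaperones, PSMD10 fell from 3179, 3162 and 2867 to 2697, 2723 and 2748 (-0.17 ± 0.06, adjusted p = 0.016; not called without control 4, at -0.14, under the same total, at -0.10, or on length removal, at -0.008), and PSMD5 had 1009, 957 and 906 against 1028, 1108 and 1040 (0.15, adjusted p = 0.070; called higher without control 4, at 0.18, and under the same total, at 0.21).

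The direction of the ConA changes followed transcript length. Across the 34 subunits, Spearman's correlation of the log2 fold change with the length of the principal transcript was 0.68 with ConA and 0.34 with PMA, and over all genes with a length it was 0.18 and 0.05. Where a gene had several principal transcripts, the longest was taken. The log2 fold change of the subunits also had a correlation with their mean normalized counts in the controls, of -0.51 with ConA and 0.07 with PMA. Length and level were not tested apart. Within a treatment all genes share the same 6 libraries, and these correlations are descriptions. Among the 17 subunits with transcripts of 773 to 1580 bases, 1 was higher and 9 lower with ConA (median -0.16), and among the 17 with 1591 to 4448 bases, 7 were higher and 1 lower (median 0.14). With PMA, 12 of the shorter and 15 of the longer were higher.

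Length also tracked the deviations of replicate libraries from their group mean. In single libraries of one group, the correlation of the subunits' deviations with length ranged from -0.71 (ConA replicate 1) to 0.66 (ConA replicate 3), and from -0.69 to 0.54 in the PMA controls. After each library's own trend over length was removed, an alternative added once the data had been seen, 18 subunits were higher and 4 lower with ConA, against 36.1% and 32.9% of all genes. That step changed the sign of 10 subunits, among them the called PSMA7 (0.13) and PSMB6 (0.10) and, of those not called before, PSMA1 (0.16), PSMB3 (0.27), PSMB7 (0.24), PSMC3 (0.11) and PSMC4 (0.14), which then were called higher. PSMB4 was at -0.34, PSMB1 at -0.09 without its call, and the beta subunits had 3 higher and 2 lower, with a median of 0.10. With PMA the same step gave 29 higher and 2 lower, against 35.0% and 33.1% of all genes. What lies behind this trend was not tested. PSMA4, PSMA5, PSMB2, PSMD3, PSMD11 and PSMD12 stayed higher with ConA, and PSMB4, PSMB5, PSMD8 and PSMD13 lower, under each of the 5 scalings, this one included, and with each library left out.

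**Figure D4:**
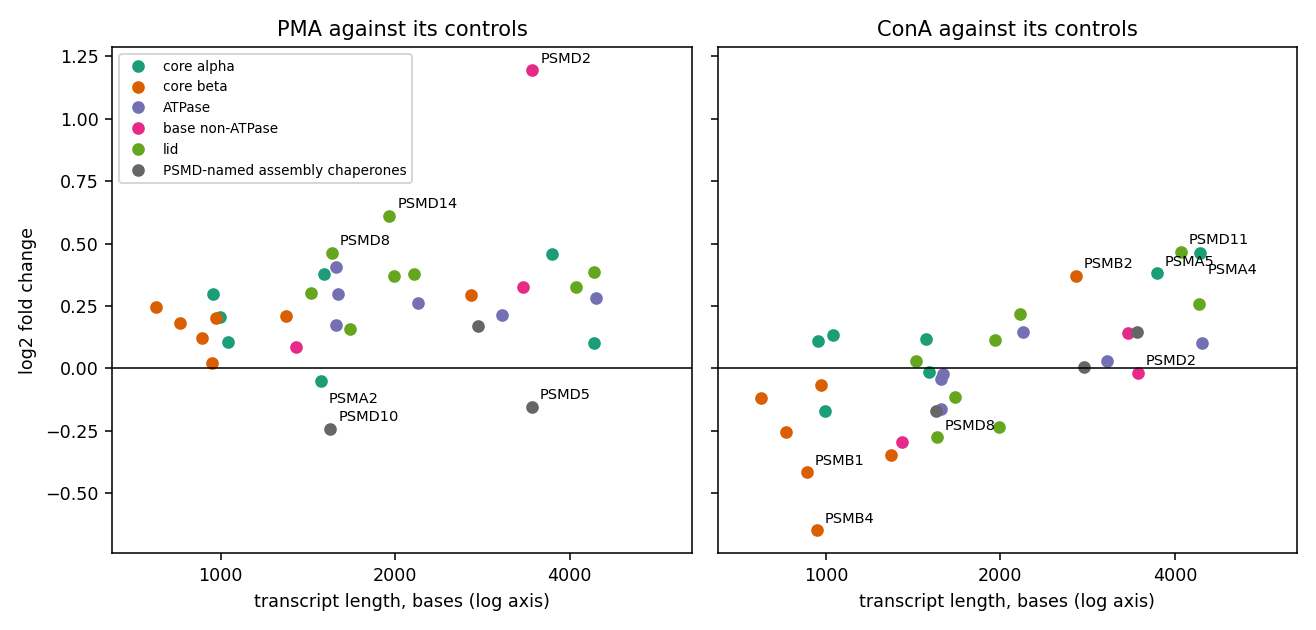
Log2 fold change of the 34 subunits (vertical axis) against the length of the principal transcript in bases (horizontal log axis) with PMA (left) and ConA (right), coloured by class. With ConA, short transcripts such as PSMB4 and PSMB1 lie below 0 and long ones such as PSMA4 and PSMD11 above it (Spearman 0.68), while with PMA most points lie above 0 at all lengths.

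The responses to PMA and ConA were then compared gene by gene, by subtracting the ConA change from the PMA change in one limma fit of all 12 libraries. The treatments share no control library. The difference was higher for 21 of 34 subunits and lower for 3, where 30.4% and 30.7% of the 15030 genes tested were called, and the median difference was 0.27 over the subunits and -0.01 over all genes. PSMD2 had the largest difference, 1.21 ± 0.06 (adjusted p = 6.83e-12), and was the 1 subunit past the study's thresholds, which 10.6% of all genes passed. PSMD8 (0.74), PSMB4 (0.67), PSMD13 (0.60) and PSMB5 (0.56) followed, with adjusted p of 5.03e-07, 1.13e-05, 5.50e-07 and 7.70e-06. In PSMD8 and PSMB5 a rise with PMA met a fall with ConA, and so it did in PSMD13, which had 7127, 6962 and 6570 normalized counts in its PMA controls and 8816, 8922 and 8924 with PMA. The PMA rise of PSMB5 was not called under the same total (0.09) or after quantile normalization (0.07).

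The lower differences were those of PSMA4 (-0.36, adjusted p = 0.001), PSMD5 (-0.30, adjusted p = 0.007) and PSMD11 (-0.14, adjusted p = 0.045). The last was lost when any of 8 of the 12 libraries was left out. By class, the median difference was 0.44 for beta subunits, 0.38 for the further base subunits, 0.27 for the lid, 0.25 for ATPases, 0.08 for alpha subunits and -0.07 for the chaperones. This order depended on the scaling. On length removal the medians were 0.15, 0.23, 0.17, 0.21, -0.07 and -0.21 in the same order. The alpha median was also negative after quantile normalization (-0.03) and under the same total (-0.11). With the same total per library the median of all genes moved to -0.20, the share of calls that were higher fell from 49.8% to 32.1%, and 11 subunits were higher and 7 lower, against 19.9% and 42.0% of all genes. The called differences of PSMC1, PSMC2 and PSMD1 were then at -0.006 each. After quantile normalization 12 were higher and 6 lower, against 31.8% and 27.5% of all genes, and the subunit median relative to all genes, 0.28 as deposited, was 0.06.

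Taking both treatments side by side, 6 subunits were higher with each (PSMA5, PSMB2, PSMD1, PSMD3, PSMD11 and PSMD12), as were 15.3% of the 14661 genes tested in both tables. Another 7 were higher with PMA and lower with ConA (PSMA7, PSMB1, PSMB5, PSMB6, PSMC5, PSMD8 and PSMD13; 7.05% of all genes), and 14 were higher with PMA and not called with ConA (10.4% of all genes). Of those 7, only PSMD8 and PSMD13 kept both calls under each of the 5 scalings and with each library left out. PSMD10 was lower with each. PSMA2 was called with neither in the values as deposited.

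Levels were compared between genes per kilobase of transcript. In the PMA controls they ran from 229 normalized counts per kilobase for PSMD5 to 9784 for PSMB4, a 42.7-fold range around a median of 3342, and the chaperones were low, with 229, 807 and 1241. With PMA, PSMD2 went from 7249 ± 101 to 16580 ± 235 and became the highest subunit. PSMB4 was highest in the ConA controls, at 15890 ± 1458, and with ConA, at 10124 ± 642, it stood next to PSMA7, at 11480 ± 663, a pair whose order was not tested. Per-kilobase levels rest on 1 transcript per gene. Named pseudogenes exist for 9 members, among them 13 for PSMC1 and 0 for PSMD2, and exons of PSMA2, PSMC1, PSMC5, PSMD6, PSMD9 and PSMD13 overlap those of another listed gene, so values of these members may include shared reads.

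Promoter sequences of members that moved most are shown for reference. RefSeq promoter windows on GRCh38.p14, of 250 bases before and 50 after the start, were at hand for 29 of 34 members, and not for PSMA7, PSMB1, PSMB6, PSMB7 and PSMD4. Both strands were searched for TGACNNNGC, the core of the antioxidant response element to which NFE2L1 and its relatives bind with small MAF partners, and for the CCAAT box. TGACNNNGC was in a window of 9 of 29 members (31.0%) and of 16.1% of all genes, and CCAAT in 16 of 29 (55.2%) and 39.7%. Printed below are the 250 bases before the start for PSMD2 (the upstream one of 2 windows) and PSMD14, the largest rises with PMA, PSMD3, which holds both motifs and rose with each treatment, and PSMB4 and PSMD11, the largest fall and rise with ConA. Capitals mark a match on either strand, and the paired CCAAT matches of PSMD14 overlap.
PSMD2, chr3:184298991-184299240, plus strand: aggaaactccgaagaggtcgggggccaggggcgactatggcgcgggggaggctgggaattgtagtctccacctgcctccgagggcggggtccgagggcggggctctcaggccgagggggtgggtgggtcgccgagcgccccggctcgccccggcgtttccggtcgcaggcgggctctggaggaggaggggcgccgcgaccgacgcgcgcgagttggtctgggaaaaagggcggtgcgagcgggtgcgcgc
PSMD14, chr2:161308175-161308424, plus strand: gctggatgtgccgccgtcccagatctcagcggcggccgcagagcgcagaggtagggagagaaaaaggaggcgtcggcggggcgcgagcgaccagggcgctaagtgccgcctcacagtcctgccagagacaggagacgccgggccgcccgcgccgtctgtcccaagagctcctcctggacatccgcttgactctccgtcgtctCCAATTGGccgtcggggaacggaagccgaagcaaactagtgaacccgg
PSMD3, chr17:39980557-39980806, plus strand: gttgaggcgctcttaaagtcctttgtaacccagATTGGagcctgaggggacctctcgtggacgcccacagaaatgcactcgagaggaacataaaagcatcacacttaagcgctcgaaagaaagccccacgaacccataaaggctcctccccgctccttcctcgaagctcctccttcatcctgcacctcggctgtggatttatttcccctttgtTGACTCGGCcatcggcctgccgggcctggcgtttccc
PSMB4, chr1:151399323-151399572, plus strand: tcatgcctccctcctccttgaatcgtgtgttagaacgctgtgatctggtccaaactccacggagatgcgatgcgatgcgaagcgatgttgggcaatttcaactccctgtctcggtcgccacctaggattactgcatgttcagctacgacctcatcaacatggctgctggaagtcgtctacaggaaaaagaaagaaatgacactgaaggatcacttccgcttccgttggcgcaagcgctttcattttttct
PSMD11, chr17:32444260-32444509, plus strand: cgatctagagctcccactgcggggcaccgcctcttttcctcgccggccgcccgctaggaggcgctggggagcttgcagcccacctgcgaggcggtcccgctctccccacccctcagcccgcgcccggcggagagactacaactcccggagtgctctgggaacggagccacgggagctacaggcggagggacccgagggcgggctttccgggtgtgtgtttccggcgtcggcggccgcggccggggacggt
In these stretches PSMD2, PSMB4 and PSMD11 hold neither motif, which says only that those letters are absent there.

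Genes around the proteasome were read from further lists. Of 14 assembly chaperones and other regulatory particle genes, 7 were higher and 2 lower with PMA (32.8% and 30.5% of all genes; median 0.11), and 5 higher and 4 lower with ConA (median -0.09), the latter near the 32.8% and 32.5% of all genes. UCHL5, the deubiquitinase docked on the base, had 1199, 1212 and 1121 normalized counts in the PMA controls and 1927, 2001 and 1953 with PMA (0.74, adjusted p = 1.21e-07), and 1740, 1755 and 1667 against 2239, 2343 and 2210 with ConA (0.40, adjusted p = 2.38e-05). POMP, the chaperone of core maturation, rose by 0.49 with PMA and 0.29 with ConA (adjusted p = 3.86e-05 and 5.92e-04). Treated libraries were above the controls for both genes in both experiments.

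Activators, the inhibitor PSMF1 and the inducible core subunits, which replace the catalytic ones in the immunoproteasome, make 8 genes. With PMA, 3 were higher and 3 lower (median -0.12), near the 32.8% and 30.5% of all genes, and with ConA 6 were higher (32.8% of all genes; median 0.88), where PSME3 (-0.01) and PSMF1 (0.09) did not pass. PSMB9 had 1118, 1016 and 906 normalized counts in the PMA controls and 569, 561 and 584 with PMA (-0.82, adjusted p = 2.09e-06), and 2212, 2737 and 2607 against 12887, 11418 and 11515 with ConA (2.25, adjusted p = 6.30e-12). PSMB10 rose with ConA from 1663, 1918 and 1874 to 4817, 4143 and 4477 (1.30, adjusted p = 1.20e-09). With PMA it was at -0.16 (adjusted p = 0.053). In the ConA libraries in which PSMB9 and PSMB10 were higher, the constitutive PSMB5 and PSMB6 were lower. The third constitutive catalytic subunit, PSMB7, was not called there (-0.07, adjusted p = 0.32). On length removal PSMB5 stayed lower (-0.13), PSMB6 was at 0.10 without a call, and PSMB7 was called higher (0.24).

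Of 8 genes for the transcription of proteasome genes, 4 were higher and 1 lower with PMA (32.8% and 30.5% of all genes), and 6 higher and 1 lower with ConA (32.8% and 32.5%). NFE2L1 itself was at 24656 to 25626 normalized counts in the PMA controls and 24748 to 24972 with PMA (-0.01, adjusted p = 0.75), and rose with ConA from 27985 to 30307 up to 39946 to 41151 (0.46, adjusted p = 3.97e-06). NFE2L3, its relative, fell with PMA from 4143, 4265 and 4521 to 3457, 3368 and 3035 (-0.39, adjusted p = 6.96e-05) and rose with ConA from 5542, 5192 and 5486 to 19228, 20818 and 20139 (1.89, adjusted p = 7.13e-13). MAFF, a small MAF partner, rose with PMA from 2523, 2644 and 2711 to 9470, 9280 and 9047 (1.82, adjusted p = 1.93e-11) and with ConA by 0.53 (adjusted p = 9.08e-06). All groups of NFE2L3 and MAFF were apart.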

How the data were processed

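Polyadenylated RNA of 12 HT1080 libraries was measured. The deposited signal values hold normalized counts by gene symbol, which the authors made from estimated counts with one factor per library, separately in the PMA and ConA tables. The authors' processing notes name Partek, Bowtie2, STAR and DESeq2, and the builds hg19 and mm10; their roles are not given in the sources used here. In each library, 81.7% to 84.8% of values from 3 to 40 became whole reads (within 0.03), so count tests were not run.

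Groups followed the labels. Log2(value + 1) was tested with limma 3.58.1 in R 4.3.3 (variance trend, Benjamini-Hochberg adjustment) for genes with a mean of at least 10; fold changes are on this scale. Differences between treatments were fitted over all 12 libraries. Calls needed an adjusted p of at most 0.05. The test was tried on simulated data. Members, classes, lists and motifs were chosen with earlier results of these data known. Values in every library are given for catalytic subunits, the extremes of each class and treatment, members past the study's thresholds, the 5 largest differences, and the 2 most changed genes of each further list described; other genes named were chosen after their values were seen. Transcript length was that of the longest GENCODE basic protein-coding transcript tagged as principal. For genes without such a tag, the longest basic protein-coding transcript was used. Alternatives covered pseudocount, filter, scaling, variance trend, joint fit, threshold, block, length and each library left out. Python 3.11.15, pandas 2.3.3 and matplotlib 3.10.9 made tables and figures.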

Additional observations from a re-analysis of the deposited data

Results flagged for a closer look

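For 24 of the 34 subunits, PMA and ConA gave different changes by a test of the difference itself (limma over all 12 libraries, Benjamini-Hochberg adjusted p of at most 0.05), where 61.1% of the 15030 genes tested differed. All values below are log2 changes with PMA minus log2 changes with ConA.

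In the core, the difference was 0.39 for PSMA1, -0.36 for PSMA4 and 0.38 for PSMA7 among the alpha subunits. Among the beta subunits it was 0.54 for PSMB1, 0.36 for PSMB3, 0.67 for PSMB4, 0.56 for PSMB5, 0.44 for PSMB6 and 0.27 for PSMB7. The ATPases gave 0.18 for PSMC1, 0.18 for PSMC2, 0.45 for PSMC3, 0.32 for PSMC4 and 0.34 for PSMC5. With the same total per library, the differences of PSMC1, PSMC2 and PSMD1 were at -0.006 each.

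In the rest of the base it was 0.18 for PSMD1, 1.21 for PSMD2 and 0.38 for PSMD4, and in the lid 0.27 for PSMD6, 0.27 for PSMD7, 0.74 for PSMD8, -0.14 for PSMD11, 0.60 for PSMD13 and 0.50 for PSMD14. The chaperone PSMD5 gave -0.30. Under each of 5 scalings and with each library left out, 11 of the 21 higher differences (PSMA1, PSMB1, PSMB4, PSMB5, PSMB6, PSMC3, PSMD2, PSMD4, PSMD8, PSMD13 and PSMD14) and 2 of the 3 lower ones (PSMA4 and PSMD5) were called.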

How the results depend on the processing

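Each group has 3 libraries, which limits precision. Quantile normalization gave 17 subunits higher with PMA (29.1% of all genes), and the same total per library 16 (22.9% of all genes). The medians were 0.11 and 0.13. The number lower with PMA was 1 without a variance trend and at the stricter threshold of 0.01 on the adjusted p, and 1 to 2 with each library left out. With ConA, the same total gave 14 higher (37.8% of all genes; median 0.063, all genes 0.064), median centring a median of -0.067, and removing the length trend 18 higher and 4 lower (median 0.12; all genes 36.1% and 32.9%). For the difference between treatments, quantile normalization gave 12 higher and 6 lower (median 0.11, all genes 31.8% and 27.5%). The same total gave 11 and 7 (median 0.079, all genes 19.9% and 42.0%), and length removal 5 lower (median 0.17, all genes 33.75%). Of the members given in full, signs reversed for PSMA2 with PMA without control 1 (0.007; range over libraries left out -0.126 to 0.007), and with ConA for PSMA7 (0.13), PSMB6 (0.10) and PSMB7 (0.24) on length removal and for PSMB7 (0.001) under the same total. The sign of PSMD2 with ConA also reversed, after quantile normalization (0.15, called higher) and under the same total (0.05). Over all 34 subunits, 10 signs changed with ConA on length removal and 9 differences under the same total. The cause was not tested. The pseudocount, the filters and the joint fit moved no count by over 1.5 times and no median beyond the spread between libraries.

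Same-numbered PMA libraries share a number only (correlations of their deviations -0.06, 0.10 and 0.10). With the replicate number as a block, 28 subunits were higher and 1 lower with PMA, against 32.7% and 30.3% of all genes. PSMD5 was not called. ConA libraries and their controls share no numbers.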

Other observations

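Ubiquitin genes and the factors that carry tagged proteins to the proteasome were a further list. Of 14 such genes, 11 were higher and 2 lower with PMA (32.8% and 30.5% of all genes; median log2 fold change 0.34), and 6 were higher and 5 lower with ConA (32.8% and 32.5% of all genes; median 0.12). SQSTM1, an adaptor for ubiquitin-tagged cargo in autophagy, rose with PMA from 66941, 64628 and 64127 normalized counts to 95092, 92584 and 95478 (0.53, limma adjusted p = 6.30e-07). It also rose with ConA, from 34190, 37019 and 35488 to 64388, 60623 and 63615 (0.82, adjusted p = 1.68e-08), and neither experiment showed overlap.

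RPS27A, which encodes ubiquitin fused to a ribosomal protein, had 9334, 10017 and 7200 normalized counts in the PMA controls and 8714, 9337 and 8447 with PMA, which overlapped (0.01, adjusted p = 0.94). With ConA it fell from 13880, 15755 and 13956 to 7839, 7617 and 6459, without overlap (-0.995, adjusted p = 3.91e-08).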
